A study of Mus musculus with 9 samples.

Results

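The genes described here are the subunits of the transcription factor NF-kappaB and inhibitors of its pathway, several of which NF-kappaB itself induces, as measured in failing mouse hearts after treatment with progenitor cells or their vesicles. They were chosen by name: Nfkbia, Nfkbib, Nfkbiz, Bcl3 and Tnfaip3 among the inhibitors, and Rela, Rel, Relb, Nfkb1 and Nfkb2 among the subunits. Of these 10 genes, 9 were analysed, out of 30142 genes on the array, and Nfkb1 was not analysed here. Each of the 9 had 1 probe set with a single gene symbol, so the rule of keeping the brightest probe set of a gene discarded nothing. Levels, which that rule uses, are given as a description.

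NF-kappaB is a dimer of Rel-family proteins that waits in the cytoplasm, bound to an inhibitor of the IkappaB family. Signals from cytokine and Toll-like receptors activate a kinase complex that marks the inhibitor for destruction, and the freed dimer enters the nucleus and switches on genes of inflammation and cell survival. Among its targets are some of its own inhibitors, which close a negative feedback loop. In the heart the pathway is known to be active after infarction in muscle cells, vessel cells, fibroblasts and infiltrating leukocytes.

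All hearts came from immunodeficient (nude) mice in which the left anterior descending artery had been tied permanently. Mice with an ejection fraction under 50% were allocated to treatment 3 weeks later, and whole hearts were taken 6 weeks after treatment. The treated groups were 3 arrays of hearts given the extracellular vesicles that 500000 cardiovascular progenitor cells secrete in 48 hours, and 3 arrays of hearts given 500000 of the cells themselves. A sham heart, with 1 array, had the needle inserted 3 times and received nothing, and 2 control arrays held hearts given alpha-MEM, a culture medium. All 4 groups, sham included, carried the infarct and the label of chronic heart failure, so no uninjured heart was measured. The titles place vesicle array 1, cell array 1, the sham array and control array 1 in an experiment numbered 9, and vesicle arrays 2 and 3, cell arrays 2 and 3 and control array 2 in an experiment numbered 1. The labels do not say that every array is a separate animal, so p-values measure only the spread between these arrays. In whole-heart RNA a change in the number of cells of one type cannot be told apart from a change in RNA per cell.

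The arrays showed heart tissue, with 7 of 7 measured heart muscle markers above the negative control limit, which is the 95th percentile of the array's negative control probes and lay between 7.18 and 7.28 on the log2 scale. Macrophage markers were above it for 4 of 8 genes, and granulocyte and lymphocyte markers for 0 of 5 and 0 of 6. Among vesicle hearts, array 3 stood apart by its lung genes: the summed log2 level of 7 lung epithelium markers was 35.3 to 50.7 on the vesicle arrays, 35.1 to 35.4 on the cell arrays, 38.0 on the sham array and 35.5 to 35.9 on the control arrays. Among cell hearts, array 3 stood apart by its immediate early genes, which respond to a stimulus within minutes to hours: the summed level of 9 of them was 69.3 to 69.9 on the vesicle arrays, 69.1 to 77.2 on the cell arrays, 66.6 on the sham array and 66.5 to 68.3 on the control arrays. Where a gene was highest on cell array 3, its difference from control is given with and without that array.

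The sequence shown first is the stretch before the start of Nfkbia, because Nfkbia is the gene whose values the comparisons below turn on. It is the 250 bases before the annotated start at chr12:55492648-55492897 on the minus strand of GRCm38.p6, from RefSeq, with capitals marking a match to the kappaB motif on either strand. The motif searched was GGG, any 3 bases, then TTCC.
Nfkbia: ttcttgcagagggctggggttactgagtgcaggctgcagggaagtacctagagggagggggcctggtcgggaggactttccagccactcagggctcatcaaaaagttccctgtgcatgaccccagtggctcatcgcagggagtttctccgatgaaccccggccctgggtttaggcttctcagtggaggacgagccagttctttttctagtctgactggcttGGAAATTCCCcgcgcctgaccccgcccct

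The match GGAAATTCCC ends 19 bases before the start. RefSeq promoter sequences were at hand for 7 of the 9 genes, with 10 start sites in all, and 7 of these 10 windows, from 4 genes, held the motif. It occurred in 4.65% of all 32851 windows of the same length. The matches nearest the start in the other 3 genes are shown to let the sites be compared, each with up to 10 bases on either side, for Tnfaip3 at chr10:19015411-19015432 (minus strand), for Rel at chr11:23771041-23771070 (minus strand) and for Nfkb2 at chr19:46304716-46304736 (plus strand). A match at another start site of Nfkb2, at chr19:46305695-46305724, is shown as well.
Tnfaip3: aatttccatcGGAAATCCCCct
Rel: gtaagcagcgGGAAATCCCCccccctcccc
Nfkb2: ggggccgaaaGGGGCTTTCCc
Nfkb2, other start site: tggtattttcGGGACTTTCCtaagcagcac

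Matches describe letters only, and binding was not measured. The windows of Nfkbib, Rela and Bcl3 held no match.

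Nfkbia encodes IkappaB-alpha, the inhibitor that is destroyed within the activation step and then made again from its own NF-kappaB-driven gene. Its log2 values were 8.43, 8.55 and 8.54 in vesicle hearts and 8.38, 8.40 and 8.43 in cell hearts, with 8.53 in the sham heart, against 8.19 and 8.26 in control hearts. Both treated groups lay wholly above the control group. The lowest cell array was 0.12 above the highest control array, whereas the lowest vesicle array was only 0.00032 above the highest cell array. From lowest to highest mean the order was control, cells, vesicles, with the single sham value inside the range of the vesicle arrays.

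**Figure D1:**
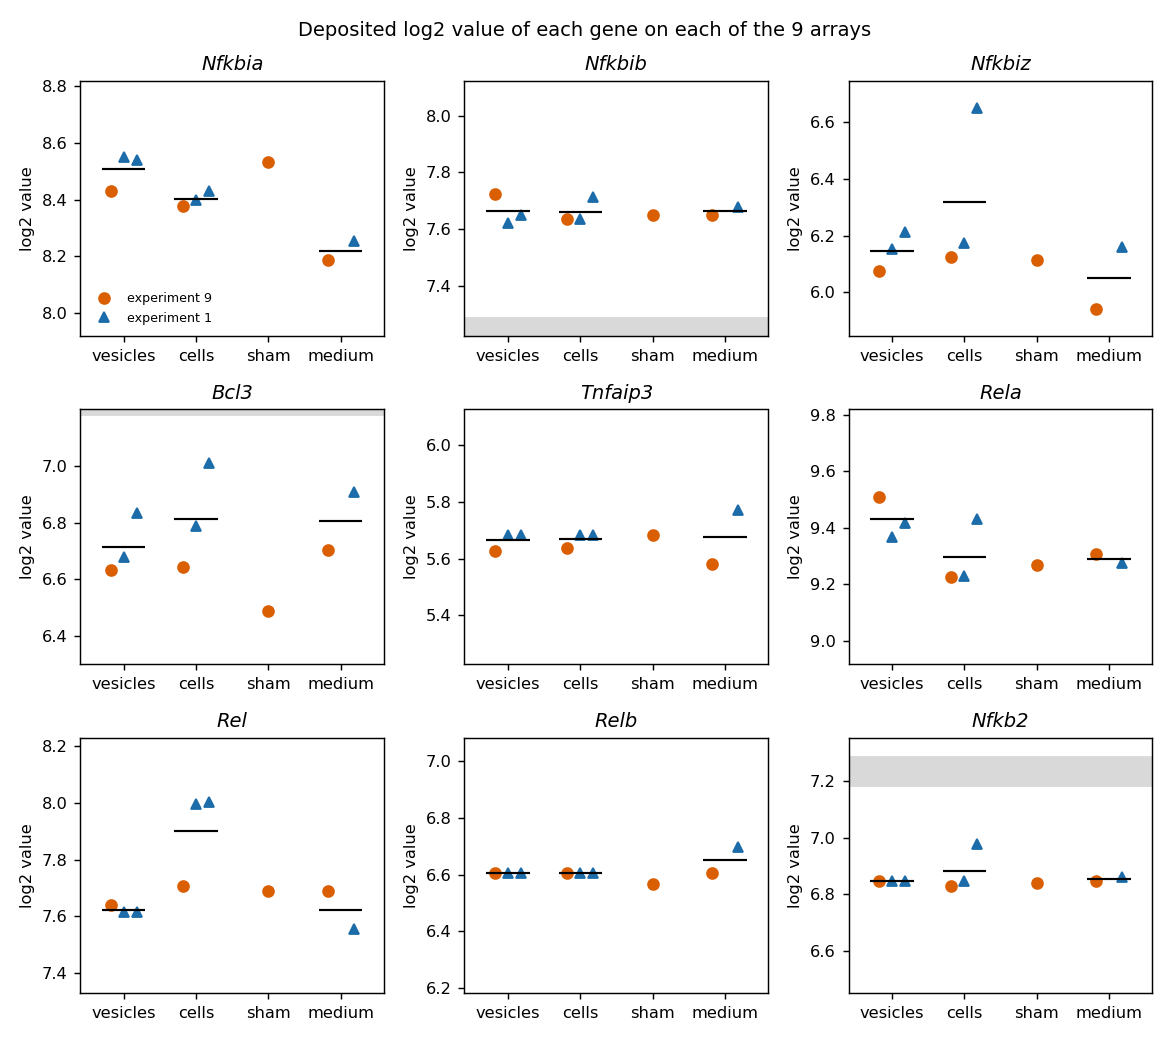
Deposited log2 value (vertical axis, each panel 0.9 log2 units high) of the 9 genes on the 9 arrays, by group; circles are experiment 9, triangles experiment 1, horizontal bars group means where a group has more than 1 array, and grey bands, where in range, the 95th percentiles of the negative controls. Nfkbia lies between 8.38 and 8.55 on the treated arrays and at 8.19 and 8.26 on the control arrays. Nfkbib, Relb and Nfkb2 vary least, over 0.10, 0.13 and 0.15.

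After vesicles the fitted Nfkbia difference from control was 0.28 ± 0.025 (SE, log2; 3 vesicle and 2 control arrays), or 1.21-fold with a 95% interval of 1.16 to 1.26. It was 0.25 within experiment 9 and 0.29 within experiment 1. After cells the difference was 0.17 ± 0.025, or 1.13-fold with an interval of 1.08 to 1.18, and 0.19 and 0.16 within experiments 9 and 1. Vesicle hearts exceeded cell hearts by 0.10 ± 0.022, with 0.052 in experiment 9 and 0.13 in experiment 1. None of the 3 differences passed limma's test adjusted over all genes (adjusted p = 0.475, 0.682 and 0.92), and the vesicle difference was already in view when the gene was chosen. Both comparisons use the same 2 control arrays, so the 2 are not independent. All 6 treated arrays lay above both controls in 1 of the 9 genes, Nfkbia, and in 1.08% of all genes.

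**Figure D2:**
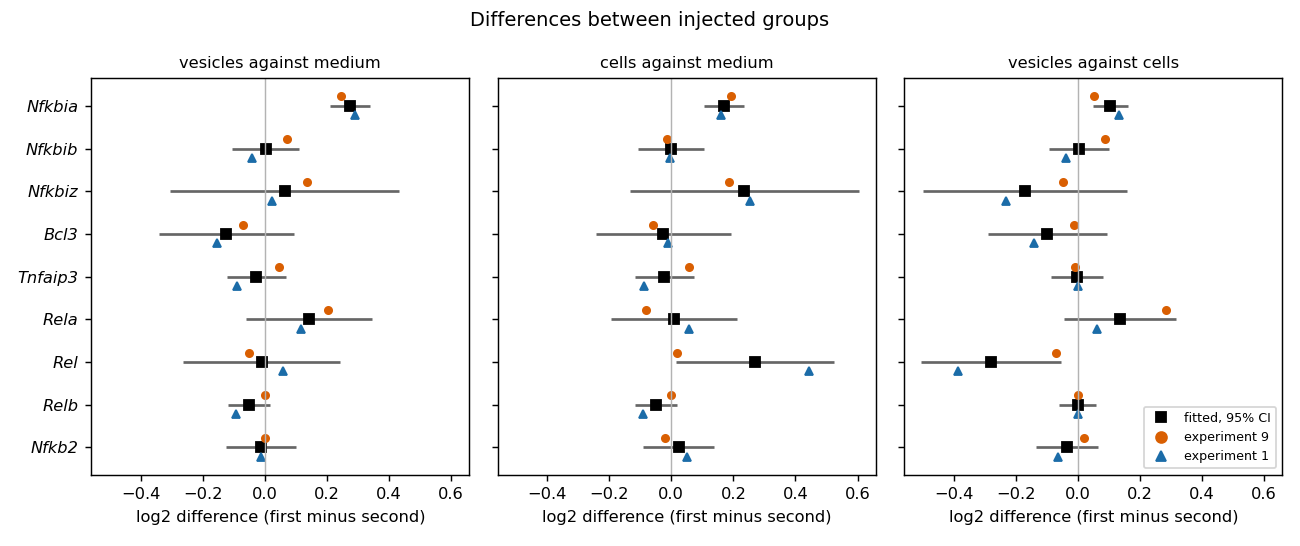
Log2 difference (horizontal axis, first group minus second) of the 9 genes (rows) in the 3 comparisons of injected hearts; squares are fitted values with 95% intervals, circles and triangles the differences within experiments 9 and 1. The Nfkbia intervals exclude 0 in all 3 panels without correction for the number of genes, at 0.28, 0.17 and 0.10, and Rel stands at 0.27 after cells with 0.018 in experiment 9 and 0.44 in experiment 1.

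The vesicle difference of Nfkbia was 0.27 without vesicle array 3 and cell array 3, and the cell difference 0.17, both close to the values with those arrays. The mean deviation of 8 macrophage markers was −0.11 to 0.23 on vesicle arrays, −0.26 to 0.15 on cell arrays and 0.0070 on the sham array, against −0.23 on control array 1 and 0.24 on control array 2. The part of macrophage genes in the Nfkbia values was not tested. A list of 12 genes known to respond to glucocorticoids, hormones that also induce Nfkbia, was higher in 10 of 12 members after vesicles (median 0.096) and in 6 of 12 after cells (median −0.0065), beside a median of −0.012 and −0.0064 over all genes. The mean deviation of that list ran from −0.0085 to 0.14 on vesicle arrays and from −0.22 to 0.22 on cell arrays, stood at 0.13 on the sham array, and ran from −0.16 to −0.055 on control arrays. The part of these genes was not tested either.

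The sham array and the control array of experiment 9 were set side by side without a test, since each group has 1 array there. Nfkbia was 0.35 higher in the sham heart, or 1.27-fold, against 0.25 for the vesicle array and 0.19 for the cell array of that experiment. In size this was at percentile 98.0 of all genes in this pair of arrays, and the next of the 9 genes, Bcl3, was at percentile 93.4. With the sham array counted among the controls, the vesicle difference of Nfkbia was 0.18 and the cell difference 0.073. Nfkbiz (0.17) and Tnfaip3 (0.10) were also higher in the sham heart, Bcl3 stood at −0.21, and Nfkbib and Rel had the very same value on both arrays.

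The genes whose values over the 9 arrays were most like those of Nfkbia were Igfbp5, which binds insulin-like growth factors (Pearson correlation 0.95), Gsr, glutathione reductase (0.91), Cd55, a brake on complement (0.90), Txnip, a thioredoxin-binding protein (0.89), and Atp13a3 (0.86), among 5038 genes above the negative controls. These coefficients describe 9 arrays that include both experiments, and were picked as the highest among 5038.

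Nfkbib encodes IkappaB-beta, a second cytoplasmic inhibitor. Its values were 7.72, 7.62 and 7.65 in vesicle hearts, 7.64, 7.64 and 7.71 in cell hearts, 7.65 in the sham heart and 7.65 and 7.68 in control hearts. The groups overlapped, with differences from control of 0.0031 ± 0.042 after vesicles and −0.00092 ± 0.042 after cells. The 95% intervals, 0.93 to 1.08-fold for both, bound the difference that the spread between these arrays allows.

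Nfkbiz encodes IkappaB-zeta, a nuclear member of the family that is induced by NF-kappaB and helps to switch on a later set of genes. Its log2 values were 6.08, 6.15 and 6.21 in vesicle hearts and 6.13, 6.17 and 6.65 in cell hearts, against 6.11 in the sham heart and 5.94 and 6.16 in control hearts. Cell array 3 stood alone at 6.65, and the remaining arrays overlapped. The fitted difference was 0.23 ± 0.15 after cells and 0.065 ± 0.15 after vesicles (limma adjusted p = 0.698 and 0.943). Without cell array 3 the cell difference was 0.10, and without vesicle array 1 the vesicle difference was 0.0043.

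Bcl3, a nuclear IkappaB protein that acts with inhibitory Rel-family dimers at the DNA, had 6.63, 6.68 and 6.84 in vesicle hearts and 6.64, 6.79 and 7.01 in cell hearts, against 6.49 in the sham heart and 6.70 and 6.91 in control hearts. Cell array 3 was again the highest, and the groups overlapped. Differences from control were −0.12 ± 0.085 after vesicles and −0.025 ± 0.085 after cells, neither past the test (adjusted p = 0.708 and 0.975). The vesicle difference was −0.072 without vesicle array 2, and the cell difference was −0.091 without cell array 3. Between experiment 9 and experiment 1 the difference was −0.19 ± 0.068, which did not pass either (adjusted p = 0.38).

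Tnfaip3 encodes a ubiquitin-editing enzyme that shuts off signalling upstream of the kinase complex. Its values were 5.63, 5.68 and 5.68 in vesicle hearts, 5.64, 5.68 and 5.68 in cell hearts, 5.68 in the sham heart and 5.58 and 5.77 in control hearts. The 2 control arrays bracketed all others, the one of experiment 9 lowest and the one of experiment 1 highest. Differences from control were −0.027 ± 0.037 after vesicles and −0.023 ± 0.037 after cells, and their sign differed between the experiments (0.047 and −0.089 after vesicles). A test of that difference between experiments gave 0.14 ± 0.0089 for vesicles and 0.15 ± 0.0089 for cells, and did not pass (adjusted p = 0.0735 and 0.0802). Tnfaip3 holds the same deposited value on 4 arrays. In the vesicle form of that test 18.1% of all genes had an unadjusted p under 0.05, with 0 passing after adjustment.

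Rela encodes RelA, the main activating subunit. It had 9.51, 9.37 and 9.42 in vesicle hearts, 9.23, 9.23 and 9.43 in cell hearts and 9.27 in the sham heart, against 9.31 and 9.27 in control hearts. The 3 vesicle arrays lay above both controls, by 0.060 at the closest, and cell array 3 reached the vesicle range while cell arrays 1 and 2 lay below the controls. The vesicle difference was 0.14 ± 0.080 (0.20 in experiment 9 and 0.12 in experiment 1) and the cell difference 0.0077 ± 0.080, neither past the test (adjusted p = 0.678 and 1). Without vesicle array 1 the vesicle difference was 0.078, and without cell array 3 the cell difference was −0.062. Nfkbia and Rela were the 2 of the 9 genes whose vesicle arrays all lay above the controls, where 3.72% of all genes did so.

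Rel encodes c-Rel, a subunit known best from lymphocytes and other leukocytes. Its values were 7.64, 7.61 and 7.62 in vesicle hearts, 7.71, 7.996 and 8.004 in cell hearts and 7.69 in the sham heart, against 7.69 and 7.56 in control hearts. Cell arrays 2 and 3 stood well above all other arrays, and cell array 1 was 0.018 above the higher control. The fitted difference was 0.27 ± 0.099 after cells, or 1.21-fold, with 0.018 in experiment 9 and 0.44 in experiment 1, and it did not pass (adjusted p = 0.682). Vesicle hearts were below cell hearts by −0.28 ± 0.088 (adjusted p = 0.92), with no overlap between the groups. Without control array 2 the cell difference was 0.12, without cell array 1 it was 0.41, and without cell array 3 it was 0.23. The difference of vesicles from cells was −0.24 without cell array 3.

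The same 2 cell arrays stood apart by several, not all, genes of the circadian clock. Arntl, an activator of the clock, had 7.56 and 7.13 on cell arrays 2 and 3, against 6.25 or less on every other array. Dbp, an output gene of the clock, had 7.27 and 8.02 there, against 8.85 or more on every other array. Over the clock list, 10 of 11 genes were measured and 6 lay above the negative control limit. Npas2, Per3, Tef, Hlf and Nr1d2 also set both arrays apart, whereas Per1, Per2 and Nr1d1 did not. On average, Arntl, Npas2, Per3 and Hlf lay below the negative control limit. The summed log2 level of the list was 77.0 to 78.2 on vesicle arrays, 72.7 to 77.1 on cell arrays and 75.8 on the sham array, against 76.3 to 76.7 on control arrays. That sum mixes genes that were higher on the 2 cell arrays with genes that were lower, and was 75.3 on cell array 3. The part of the clock genes in the Rel values was not tested.

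The test of whether the cell difference of Rel varied with the experiment gave −0.43 ± 0.011 and did not pass (adjusted p = 0.0802). The residual spread in that test comes from 2 pairs of arrays in experiment 1, and 18.8% of all genes had an unadjusted p under 0.05 in that test. The mean deviation of the lymphocyte markers was −0.044 to −0.016 on cell arrays and −0.036 to 0.20 on control arrays, and all 6 measured lymphocyte markers lay under the negative control limit. Nfkbia and Rel were the 2 genes whose cell arrays all lay above the controls, beside 3.2% of all genes, and Rel was the 1 gene whose vesicle arrays all lay below the cell arrays, beside 2.56% of all genes. Nfkbia was the 1 gene whose vesicle arrays all lay above the cell arrays, beside 1.85%.

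Relb and Nfkb2 encode the subunits of the noncanonical pathway, the slower branch that lymphotoxin and related ligands open. Relb had the same value, 6.61, on all 3 vesicle arrays, all 3 cell arrays and control array 1, with 6.70 on control array 2 and 6.57 on the sham array. Nfkb2 was 6.85 on all 3 vesicle arrays and 6.83, 6.85 and 6.98 on the cell arrays, against 6.84 on the sham array and 6.85 and 6.86 on the control arrays. Differences from control were −0.050 ± 0.026 for Relb after either treatment and −0.012 ± 0.044 and 0.023 ± 0.044 for Nfkb2 after vesicles and cells. Without cell array 3 the cell difference of Nfkb2 was −0.017. None passed, and the Relb value came from control array 2 alone. Values repeated to the last digit on 3 or more arrays occur in 4 of the 9 genes and in 61.1% of all genes, and they carry no order between arrays.

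Across the 9 genes limma passed 0 in vesicles against control, 0 in cells against control, 0 in vesicles against cells and 0 in experiment 9 against experiment 1, where 0% of all genes passed in each. At an unadjusted p under 0.05 there was 1 gene of 9 after vesicles (6.44% of all genes), 2 after cells (6.73%), 2 between vesicles and cells (4.34%) and 3 between the experiments (12.8%). The median difference of the 9 genes was −0.0098 after vesicles and 0.0077 after cells, beside −0.012 and −0.0064 over all genes. All 3 genes of the comparison between experiments were lower in experiment 9: Bcl3 as above, Tnfaip3 (−0.089 ± 0.030) and Nfkbia (−0.074 ± 0.020). Nfkbiz stood at −0.20 ± 0.12 there. With the sham array among the controls Nfkbia was at −0.016. Tnfaip3 was at −0.051 without control array 1 and also without control array 2, and Nfkbiz at −0.12 without cell array 3. Of the 9 genes, 4 lay above the negative control limit on every array (Nfkbia, Nfkbib, Rela and Rel) and 5 below it on every array (Nfkbiz, Nfkb2, Relb, Tnfaip3 and Bcl3).

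Cell array 3 held the highest value of the 9 arrays for 4 of the 9 genes, Nfkbiz, Bcl3, Rel and Nfkb2, where it did so for 14.9% of all genes. Of these 4, Nfkbiz, Bcl3 and Nfkb2 lay below the negative control limit on every array. Rel, at 8.004 there, was 7.996 on cell array 2. Immediate early genes rose further on cell array 3. Fos, a subunit of the AP-1 factor, was 8.14 there against 6.59 and 6.70 on the other cell arrays and 6.11 and 6.51 on the control arrays. Atf3, a stress-induced factor, was 8.55 there, 7.23 and 7.46 on the other cell arrays and 6.70 and 6.92 on the control arrays. Fos lay above the negative control limit only on cell array 3, and Atf3 only on cell arrays 2 and 3. Of the 9 immediate early genes, 6 lay above it on average. The part of the immediate early genes of cell array 3 in its NF-kappaB values was not tested.

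**Figure D3:**
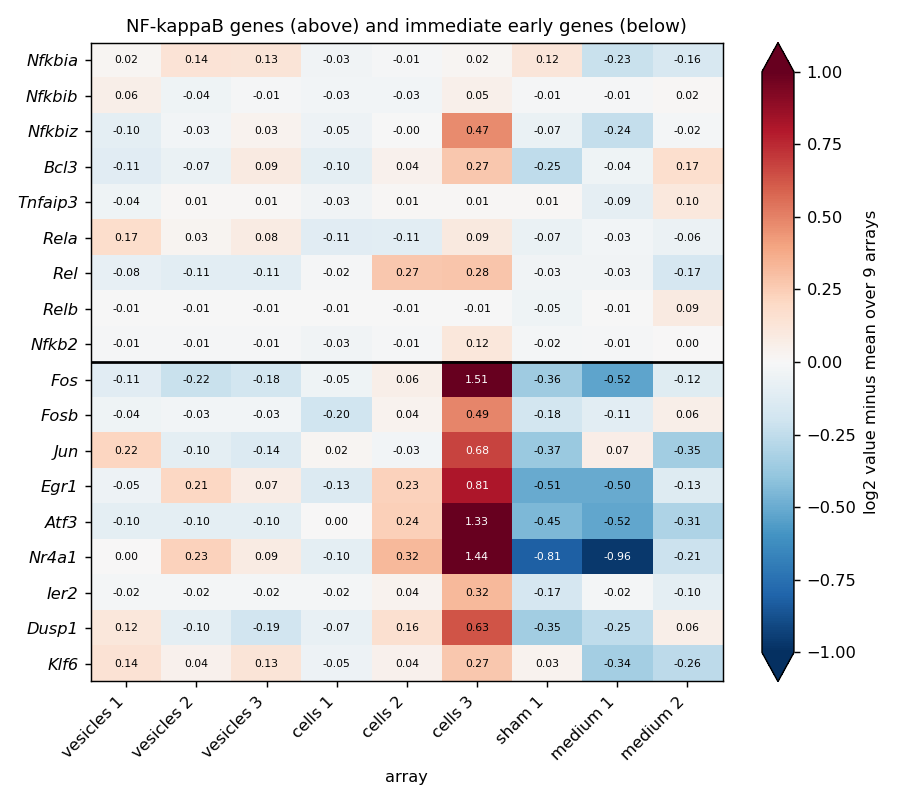
Log2 value minus the gene's mean over the 9 arrays (colour and printed number; colours are capped at 1 in either direction) for the 9 NF-kappaB genes above the line and 9 immediate early genes below it, with arrays as columns. Cell array 3 is high for Nfkbiz (6.65), Bcl3 (7.01) and Rel (8.004) together with Fos (8.14) and Atf3 (8.55), while Nfkbia is lowest on the 2 medium control arrays. Nfkbiz and Bcl3 lie below the negative control limit, and Rel is 7.996 on cell array 2.

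Nfkbiz, Bcl3 and Tnfaip3 lay below the negative control limit on every array, and their companions were picked as the highest correlations among 5039 genes. The genes with values most like Nfkbiz over the 9 arrays were E2f4, Ranbp10, Tnpo2, Ipo4 and Clu (correlations of 0.96 to 0.97), all highest on cell array 3. E2f4, Tnpo2, Ipo4 and Clu each repeat the same value on most arrays, so cell array 3 weighs heavily in their correlations. Those most like Bcl3 were Ltbr, the lymphotoxin beta receptor that opens the noncanonical pathway (0.94), Stard10, Tnfaip2, a gene first found as induced by tumour necrosis factor (0.94), Plin5 and Ints1 (0.92). Each of these companions, like Bcl3 itself, was highest on cell array 3 and lowest on the sham array. Those most like Tnfaip3 were Ifi30, a lysosomal reductase of antigen presentation (0.95), Asmt, Iqank1, Serpina3n, an acute-phase protease inhibitor (0.90), and Sry (0.88). Tnfaip3 and all of its companions named here were highest on control array 2, where Tnfaip3 and Ifi30 stood at 5.77 and 8.02.

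The rest of the pathway was described by role. Over all genes, 6.44% had an unadjusted p under 0.05 after vesicles and 6.73% after cells, in either direction. Of 16 measured kinases and adaptors, 0 passed in either comparison with control, and their medians were 0.0035 after vesicles and 0.011 after cells; at an unadjusted p under 0.05 there were 0 after vesicles and, after cells, 1 higher and 1 lower. Map3k7, the kinase that activates the IkappaB kinase complex, stood at 0.089 ± 0.044 after vesicles. Tab2, its ubiquitin-binding partner, stood at 0.069 ± 0.030 after vesicles and 0.082 ± 0.030 after cells. Within experiment 9 Tab2 stood at 0 after vesicles and 0.047 after cells, and control array 2 held its lowest value, 7.91. Ikbke, an inducible relative of the IkappaB kinases, stood at −0.046 ± 0.030 and −0.083 ± 0.030. Within experiment 9 its vesicle difference was 0. Map3k14, the kinase of the noncanonical pathway, stood at −0.048 ± 0.023 after cells. Of the 16 genes, 4 lay above the negative control limit, Map3k7 and Tab2 among them. Ikbke and Map3k14 lay below it. Among 17 other inhibitors 0 passed (medians −0.0035 and −0.010). At an unadjusted p under 0.05 there were 0 of them after vesicles and 1 after cells. Nfkbie, encoding IkappaB-epsilon, stood at −0.11 ± 0.050 after vesicles and −0.17 ± 0.050 after cells. That was opposite in sign to Nfkbia, but Nfkbie lay below the negative control limit. Rnf11, a partner of the ubiquitin-editing complex, stood at 0.090 ± 0.048 and 0.097 ± 0.048. Within experiment 9 both differences of Rnf11 were 0, and control array 2 held its lowest value, 7.37. Nfkbid, another nuclear IkappaB protein, stood at −0.062 ± 0.035 and −0.076 ± 0.035. Its vesicle difference was 0.0099 within experiment 9 and −0.11 within experiment 1. Of the 17 genes, 6 lay above the negative control limit, Rnf11 among them, and Nfkbid lay below it.

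Receptors likewise had 0 of 13 past the test, with medians of −0.021 and 0.0032, and 2 lower after vesicles and 1 lower after cells at an unadjusted p under 0.05. Cd14, the coreceptor for bacterial lipopolysaccharide, stood at −0.31 ± 0.083 after vesicles and −0.18 ± 0.083 after cells, and Tlr4, the receptor it serves, at 0.11 ± 0.046 after both. Tlr2, a receptor for bacterial lipoproteins, stood at −0.18 ± 0.054 after cells, and Tnfrsf13c, the receptor of a B-cell survival factor, at −0.072 ± 0.023 after vesicles. Of the 13 receptors, 5 lay above the negative control limit, Tlr4 among them. Cd14, Tlr2 and Tnfrsf13c lay below it. Ligands were lower than control in 9 of 10 genes after vesicles and in 9 of 10 after cells (medians −0.073 and −0.080), with 0 past the test and 0 of 10 above the negative control limit. At an unadjusted p under 0.05, 3 ligands were lower after vesicles and 2 after cells. For receptors and ligands alike, the shares of all genes, in either direction, were 6.44% after vesicles and 6.73% after cells. Il1b, the cytokine interleukin-1 beta, had 4.88, 4.81 and 4.97 in vesicle hearts, against 4.97 and 5.51 in control hearts, and its difference of −0.40 ± 0.15 was −0.090 in experiment 9 and −0.62 in experiment 1. The lymphotoxin gene Lta stood at −0.073 ± 0.027 after vesicles and −0.10 ± 0.027 after cells, and its partner Ltb at −0.14 ± 0.051 and −0.095 ± 0.051. Il1a, the cytokine interleukin-1 alpha, stood at −0.13 ± 0.048 after cells.

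Targets of NF-kappaB, 25 genes from a list of textbook targets, were lower than control in 17 after vesicles and 20 after cells, with medians of −0.044 and −0.050 beside −0.012 and −0.0064 over all genes. None of the 25 passed (lowest adjusted p = 0.675 and 0.682). At an unadjusted p under 0.05 there were 1 higher and 7 lower after vesicles and 1 higher and 4 lower after cells. The shares of all genes, in either direction, were 6.44% and 6.73%. Of all 25 targets, 5 lay above the negative control limit, and the targets named here did not. Vcam1, a leukocyte adhesion molecule of the vessel wall, stood at −0.13 ± 0.034 after vesicles and −0.14 ± 0.034 after cells, with the same sign in both experiments. Cxcl2, a neutrophil chemokine, stood at −0.15 ± 0.032 and −0.12 ± 0.032. Saa3, an acute-phase protein, stood at −0.21 ± 0.070 after cells. Irf1, an interferon-linked transcription factor, had 6.76, 6.65 and 6.80 in vesicle hearts, against 6.91 and 7.19 in control hearts.

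Between vesicle and cell hearts no gene of these lists passed either (adjusted p = 0.92 for each gene named here). At an unadjusted p under 0.05 there was 1, the target Gadd45b, beside 4.34% of all genes. Among the targets, the stress-response gene Gadd45b stood at 0.20 ± 0.031, the chemokine gene Cxcl1 at −0.22 ± 0.097 and the cytokine gene Il6 at −0.059 ± 0.024. Among the inhibitors, Irak3, an inactive relative of the receptor-associated kinases, stood at 0.079 ± 0.041, and Tax1bp1 and Tnip1, partners of the ubiquitin-editing enzyme, both at 0.062. Myd88, the adaptor of Toll-like receptors, stood at −0.055 ± 0.026, Map3k7 at 0.066 ± 0.039 and Ikbke at 0.038 ± 0.027. Tnfrsf1b, a receptor of tumour necrosis factor, stood at −0.14 ± 0.071, Cd14 at −0.13 ± 0.074 and Tlr2 at 0.065 ± 0.048. The ligand genes Cd40lg, Il18 and Il1b stood at −0.048, −0.031 and −0.18. Of the genes named in this comparison, only Tax1bp1, Tnip1 and Map3k7 lay above the negative control limit on average.

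**Figure D4:**
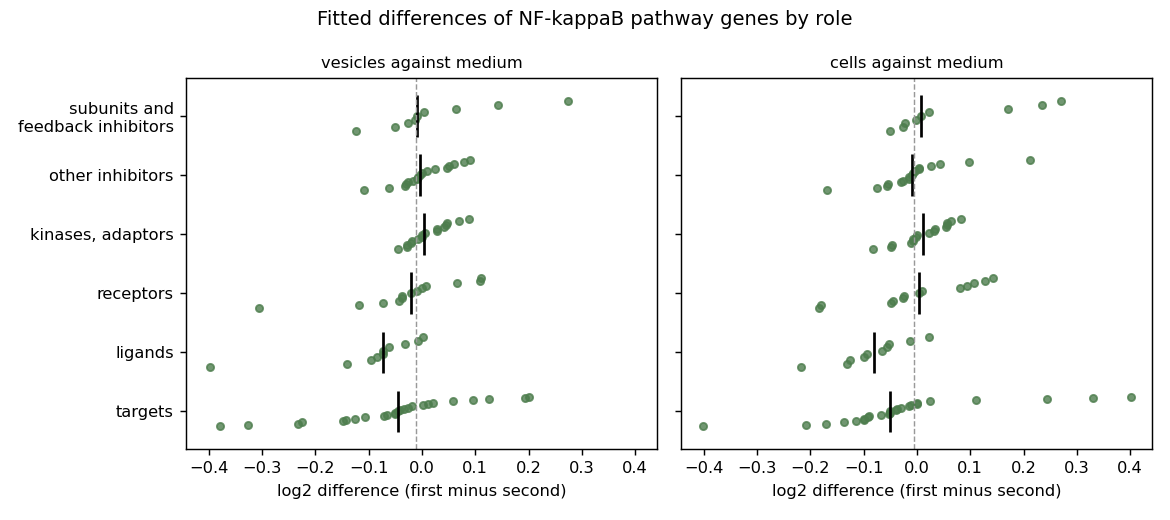
Fitted log2 differences from medium control (horizontal axis) of single genes (points) in 6 role groups (rows) after vesicles, left, and after cells, right; black ticks are group medians and the dashed line is the median of all genes. Ligand medians lie at −0.073 and −0.080 and target medians at −0.044 and −0.050, left of the dashed line, and no gene shown passed the test.

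Control array 2, 1 of the only 2 control arrays, held the highest macrophage (0.24) and lymphocyte (0.20) deviations of the 9 arrays and the highest Il1b and Irf1 values (5.51 and 7.19). Control array 2 also held the highest values of Cd14, Tlr2, Tnfrsf13c, Nfkbie, Nfkbid, Ikbke and Map3k14, and the lowest of Map3k7. Tlr4 was lowest on control array 1. The part of control array 2 in the low values of ligands and targets was not tested. Nor was its part in the differences of these receptors, inhibitors and kinases, or of Tab2 and Rnf11.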

How the data were processed

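Total RNA of frozen whole hearts was isolated with Trizol and labelled with biotin for Affymetrix whole-transcript arrays, per the labels' protocols. The authors deposited 1 normalized log2 value per probe set and array; the log2 scale was read from the values, and Partek is named, with no role, in the submitters' processing notes. The sources used here do not name the summary or normalization method. Of 80202 probe sets, 10553 were negative controls and 30604 had 1 symbol in the platform table; symbols were updated through Entrez numbers with RefSeq (GRCm38.p6), leaving 30142 genes.

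The model was limma 3.58.1 (lmFit, eBayes; R 4.3.3) on 8 arrays, without the sham array, with the experiment as a fixed block and 4 residual degrees of freedom. P-values were two-sided and Benjamini-Hochberg adjusted across the 30142 genes, at 0.05. Errors given with ± are SEs of fitted log2 differences. Treatment by experiment terms came from a second model with 2 residual degrees of freedom. The code was tested on simulated data. The deviation of a gene list averages, over its genes, the distance of the array's log2 value from that gene's mean on 9 arrays. Precision is set by how few arrays there are.

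The genes, lists and tests were chosen with earlier results of these data known. The rule named all 10 genes, the 3 genes of each other pathway list with the lowest unadjusted p in each comparison, and 5 companion genes each for Nfkbia, Nfkbiz, Tnfaip3 and Bcl3. Pathway genes so named for the comparison between experiments are not described here. Fos, Atf3, Arntl, Dbp and the second value given for a gene picked in 1 comparison were chosen after their values were seen.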

Additional observations from a re-analysis of the deposited data

How the results depend on the processing

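Alternatives were no experiment term, the VTS number of the titles as block, centring on array medians, quantile normalization, leaving out dim genes, averaging probe sets, trend and robust eBayes, the sham array among the controls, each array left out in turn, and, chosen after seeing the data, vesicle array 3 and cell array 3 both left out. Nfkbia kept its direction in every one of these in the 3 comparisons of injected hearts; with the sham array among the controls it was 0.18 after vesicles and 0.073 after cells. Genes passing limma's test numbered 0 to 823 after vesicles and 0 to 901 after cells when 1 array was left out, the high counts both without control array 1, and 1 after cells with the sham array among the controls. Without control array 1, Relb (−0.092 after vesicles, adjusted p = 0.0464, and −0.092 after cells, adjusted p = 0.0461) and Tnfaip3 (−0.091 after vesicles, adjusted p = 0.0499) passed; the lone control array left is then assumed to vary like the other groups.

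Of 501 member values under alternatives, 45 changed sign, all for differences of at most 0.065, and the cause was not tested. After vesicles these were Nfkbib (−0.0080 with the VTS block, −0.010 with quantile normalization), Nfkbiz (−0.0016 with the VTS block), Nfkb2 (0.0090 centred) and Rel (0.00037 with no experiment term, 0.011 centred, 0.0040 without both arrays). After cells they were Nfkbib (0.029 centred, 0.0042 with sham), Nfkb2 (−0.017 without both arrays), Rela (−0.025 with the VTS block, −0.014 with quantile normalization, −0.062 without both arrays), Tnfaip3 (0.0068 centred, 0.0076 with quantile normalization) and Bcl3 (0.0070 with no experiment term, 0.0044 centred, 0.036 with sham). Between vesicles and cells they were Nfkbib (−0.0043 centred) and Nfkb2 (0.010 without both arrays). With 1 array left out, the ranges after vesicles were −0.044 to 0.031 for Nfkbib, −0.034 to 0.00078 for Nfkb2, −0.16 to 0.11 for Rel and −0.091 to 0.050 for Tnfaip3. After cells they were −0.029 to 0.029 for Nfkbib, −0.017 to 0.054 for Nfkb2, −0.062 to 0.081 for Rela, −0.087 to 0.054 for Tnfaip3 and −0.091 to 0.020 for Bcl3. Between vesicles and cells they were −0.036 to 0.035 for Nfkbib, −0.062 to 0.0085 for Nfkb2 and −0.021 to 0.019 for Tnfaip3. All titles carry the same replicate number, so that number pairs no arrays. With the VTS number as block, which every vesicle array shares with 1 cell array, Nfkbia was 0.27 after vesicles, 0.17 after cells and 0.10 between them, and 0 genes passed.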
